A study of Macaca mulatta with 18 samples.

Results

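DNAJ proteins are the J-domain co-chaperones of the HSP70 machine. The J domain stimulates the ATPase of an HSP70 and so makes it clamp onto an unfolded client, and the rest of the protein decides which client is delivered and where. Class A members carry, next to the J domain, a glycine- and phenylalanine-rich stretch and a zinc-binding region, class B members lack the zinc-binding region, and class C members share the J domain alone and act in the endoplasmic reticulum (ER), mitochondria, nucleus or vesicles. In muscle the family is known for its part in protein quality control of the contractile apparatus, and mutations of DNAJB4 and DNAJB6 cause human myopathies. The members described here are all genes whose symbol starts with DNAJA, DNAJB or DNAJC and a number, leaving out DNAJC19. They are 45 of the 20046 genes named on the array, with 4 genes in class A, 13 in class B and 28 in class C, and are measured by 71 probes.

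RNA of the vastus lateralis, a thigh muscle, of 18 male rhesus monkeys was read on 18 Sentrix Human HT-12 arrays to describe how muscle differs with age. The mean age was 6.00 ± 0.00 years in 6 young monkeys, 16.48 ± 0.31 years in 6 middle-aged monkeys and 26.83 ± 0.22 years in 6 old monkeys (SEM), and no treatment is named for any of them. The animals are different individuals at each age, so the comparisons are between animals and not within them, and in such whole-muscle RNA fewer cells of a type and less RNA per cell cannot be told apart. Because the probes were designed on human transcripts, their brightness also reflects how well the monkey transcript matches them, and levels are compared between animals and not between genes.

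All 11 skeletal muscle markers, among them ACTA1, MYH2, CKM and MB, were detected on all 18 arrays. The arrays had a median intensity of 71 to 97 and 24.5 to 30.5% of probes detected. Young replicate 6 correlated least with the other arrays (mean r = 0.931, against 0.949 to 0.967 for the others) and had the highest fibroblast and matrix marker score (5 of 7 markers tested), 2.01 log2 units above the mean of all animals. Erythrocyte markers (the globin genes HBA1, HBA2 and HBB, and ALAS2) had scores of -1.58 to -0.84 in the young, -1.15 to 0.91 in the middle-aged and -0.89 to 3.88 in the old animals, and 3 of these 4 genes were higher in old than in young muscle past the test. Old replicates 1, 2 and 3 had the highest of these scores. Immediate early genes scored -0.81 to -0.15 in the young, -0.38 to 1.56 in the middle-aged and -0.69 to 1.89 in the old animals. The part of these markers in the differences below was not tested. Values without young replicate 6 and old replicates 1, 2 and 3 stand beside DNAJA1, DNAJB6 and DNAJC3. Those values still include the middle-aged animals with high immediate early scores. Each array was divided by the SD of its log intensities, which averaged 0.836 in young, 0.788 in middle-aged and 0.841 in old monkeys. The smallest SD of all arrays, 0.711, was that of middle-aged replicate 6. A value that involves middle-aged muscle can therefore depend on this scaling. It is therefore also given, where it turns, with the arrays centred on their median and not divided by the SD.

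Testing required a probe of the gene with detection on 6 or more of the 18 arrays (detection p under 0.05), and of several such probes the brightest was used. Of the 45 DNAJ genes, 24 passed. These were all 4 class A genes (DNAJA1, DNAJA2, DNAJA3 and DNAJA4), 8 class B genes (DNAJB1, DNAJB2, DNAJB4, DNAJB5, DNAJB6, DNAJB11, DNAJB12 and DNAJB14) and 12 class C genes (DNAJC3, DNAJC4, DNAJC5G, DNAJC7, DNAJC8, DNAJC10, DNAJC13, DNAJC17, DNAJC24, DNAJC27, DNAJC28 and DNAJC30). The probes of 18 of them were detected on all 18 arrays, those of DNAJC3, DNAJC4 and DNAJC30 on 17, those of DNAJB12 and DNAJB14 on 8 and that of DNAJC5G on 7.

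The other 21 genes could not be compared. They were DNAJB3, DNAJB7, DNAJB8, DNAJB9 and DNAJB13 of class B, and DNAJC1, DNAJC2, DNAJC5, DNAJC5B, DNAJC6, DNAJC9, DNAJC11, DNAJC12, DNAJC14, DNAJC15, DNAJC16, DNAJC18, DNAJC21, DNAJC22, DNAJC25 and the readthrough DNAJC25-GNG10 of class C. Their probes read 40 to 120 intensity units, no probe of 15 of these genes was detected on any array, and the remaining 6 genes had a probe detected on at most 5 arrays. DNAJB9, the ER-lumen partner of the HSP70 called BiP, and DNAJC5, the cysteine string protein of vesicles, were among the undetected genes. With human probes, a signal at background says nothing about whether the monkey transcript is present.

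No DNAJ gene passed an adjusted p of 0.05 from limma in any of the 3 comparisons (0 of 24 each). Over all 8589 genes tested, 0.0233% passed between middle-aged and young muscle, 0.652% between old and middle-aged muscle and 0.0931% between old and young muscle. At an unadjusted p under 0.05, 10 of the 24 DNAJ genes (41.7%) were reached in at least 1 comparison, against 27.1% of all genes tested, and 9 of 23 (39.1%) without DNAJC5G, which was detected mainly in middle-aged animals. The methods' t-test took an unadjusted p under 0.05 together with the study's cuts on Z ratio and average intensity. It called 2 of the 24 between middle-aged and young muscle, against 4.72% of all genes. Between old and middle-aged muscle it called 1, against 5.74%, and between old and young muscle 2, against 4.47%. The values that came nearest to the adjusted threshold were those of DNAJA1, DNAJC3, DNAJB6 and DNAJC5G.

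Between middle-aged and young muscle, 5 members were higher at an unadjusted p under 0.05 (DNAJB6, DNAJC5G, DNAJB4, DNAJC28 and DNAJC13), against 4.2% of all genes, and 1 was lower (DNAJB11), against 6.9%. Between old and middle-aged muscle, 1 was higher (DNAJC7), against 9.24% of all genes, and 4 were lower (DNAJA1, DNAJC3, DNAJC5G and DNAJC8), against 7.22%. Between old and young muscle, 1 was higher (DNAJB6), against 5.27% of all genes, and 3 were lower (DNAJA1, DNAJC3 and DNAJB11), against 5.69%. As shares of the 24 members tested, 20.8% were higher and 4.17% lower in the first comparison. The shares were 4.17% and 16.7% in the second and 4.17% and 12.5% in the third. Both comparisons with middle-aged muscle count DNAJC5G, which passed the detection filter through the middle-aged animals, where it is high. The first also counts DNAJC28 and the second DNAJC8, which turned direction with median centring without division by the SD. Such counts cover tested members only, and the comparisons share animals, so they are not 3 separate sets of evidence.

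**Figure D1:**
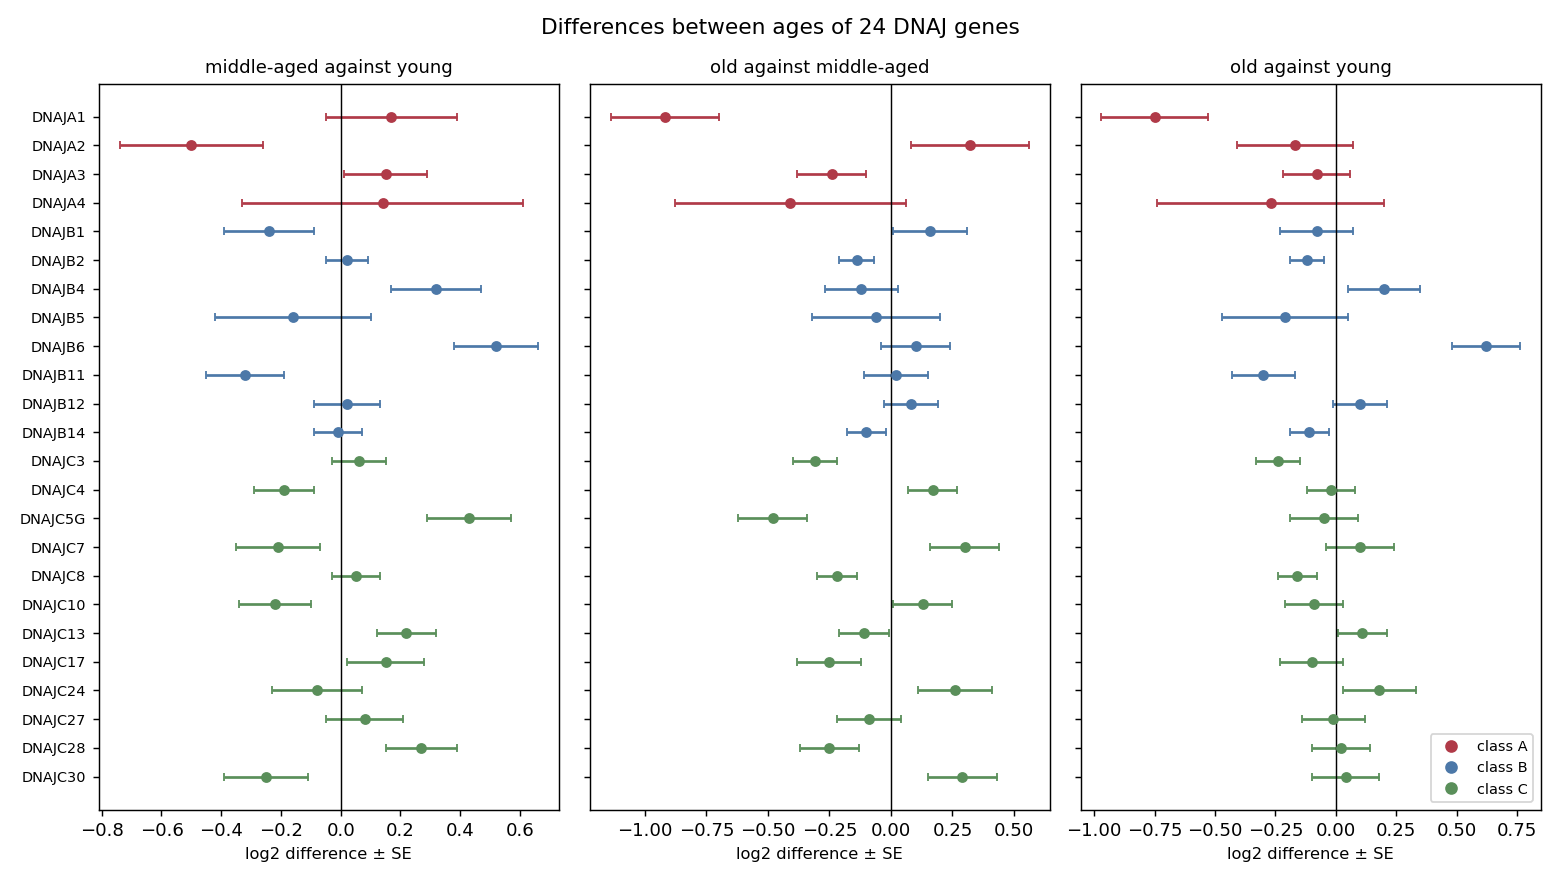
The log2 difference between ages (points) and its standard error (bars) for each of the 24 tested DNAJ genes, in 3 panels for the 3 comparisons, coloured by class. DNAJA1 is the lowest in both comparisons with old muscle and DNAJB6 the highest in both comparisons with young muscle. Differences that involve middle-aged animals depend on the scaling of the arrays, and 9 members turn direction between middle-aged and young muscle and 5 between old and middle-aged muscle when arrays are median-centred without division by their SD.

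DNAJA1, a cytosolic class A co-chaperone that hands clients to HSPA8 and HSPA1A, had the largest difference of the family. Its normalized intensity was 1066.1 to 2076.3 among young animals (median 1232.4), 1149.5 to 2123.8 among middle-aged animals (median 1479.1) and 531.6 to 1351.7 among old animals (median 730.2). Of the 6 old animals, 5 lay below every middle-aged and every young animal, and old replicate 3 lay at 1351.7 among them. The log2 difference was -0.92 ± 0.22 (SE) between old and middle-aged muscle, a level 1.89-fold lower (unadjusted p = 0.000528, adjusted p = 0.0619 from limma). Between old and young muscle it was -0.75 ± 0.22 (adjusted p = 0.178 from limma), and between middle-aged and young muscle 0.17 ± 0.22, a value that turned to -0.11 with median centring without division by the SD.

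The call on DNAJA1 between old and middle-aged muscle turned on single animals. Without old replicate 3 the log2 difference was -1.07 (adjusted p = 0.0228 from limma, a fit in which 1.04% of all genes passed) and without young replicate 1 it was -0.92 (adjusted p = 0.0434, with 0.885% passing), although that animal is in neither age and enters through the shared estimate of the spread. Without young replicate 6 and old replicates 1, 2 and 3, which were left out for the array correlation and the erythrocyte markers after the data were seen, it was -1.29 (adjusted p = 0.0316, with 0.489% passing). That set leaves out old replicates 1, 2 and 3, the highest old animals for DNAJA1, at 1043.0, 774.7 and 1351.7. The old animals that remain read 657.9, 531.6 and 685.8. The same 14 animals gave -1.08 between old and young muscle (adjusted p = 0.0539). With array weights it was -0.96 (adjusted p = 0.0484, with 0.827% passing), and over 31 alternatives, of which it passed in these 4, it lay between -1.29 and -0.66.

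The other class A genes varied more between animals of one age than between ages. DNAJA2, a second cytosolic class A co-chaperone, read 1243.9 to 1919.2 in young (median 1710.0), 452.7 to 1786.7 in middle-aged (median 1314.3) and 945.6 to 1726.9 among old animals (median 1502.4). The low value of 452.7 belonged to middle-aged replicate 6, and the other 5 middle-aged animals lay at 1180.2 or above. The log2 difference between middle-aged and young muscle was -0.50 ± 0.24 (unadjusted p = 0.0557, adjusted p = 0.469 from limma), and -0.23 (adjusted p = 0.766) without middle-aged replicate 6.

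DNAJA3, the mitochondrial class A member that works with the HSP70 HSPA9, read 873.6 to 1563.4 in young (median 1337.8), 1074.6 to 1631.0 in middle-aged (median 1483.1) and 956.6 to 1433.7 among old animals (median 1221.1). The ages overlapped throughout, and the log2 differences lay between -0.24 and 0.15, of which both with middle-aged muscle turned direction with median centring without division by the SD. DNAJA4, another cytosolic member, spanned 198.7 to 1641.6 among the middle-aged animals alone. In that age 3 animals lay above every young animal and 2 below every young animal, and the SD of its log2 level was 1.29, against 0.52 in young and 0.71 in old animals (n = 6 each).

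**Figure D2:**
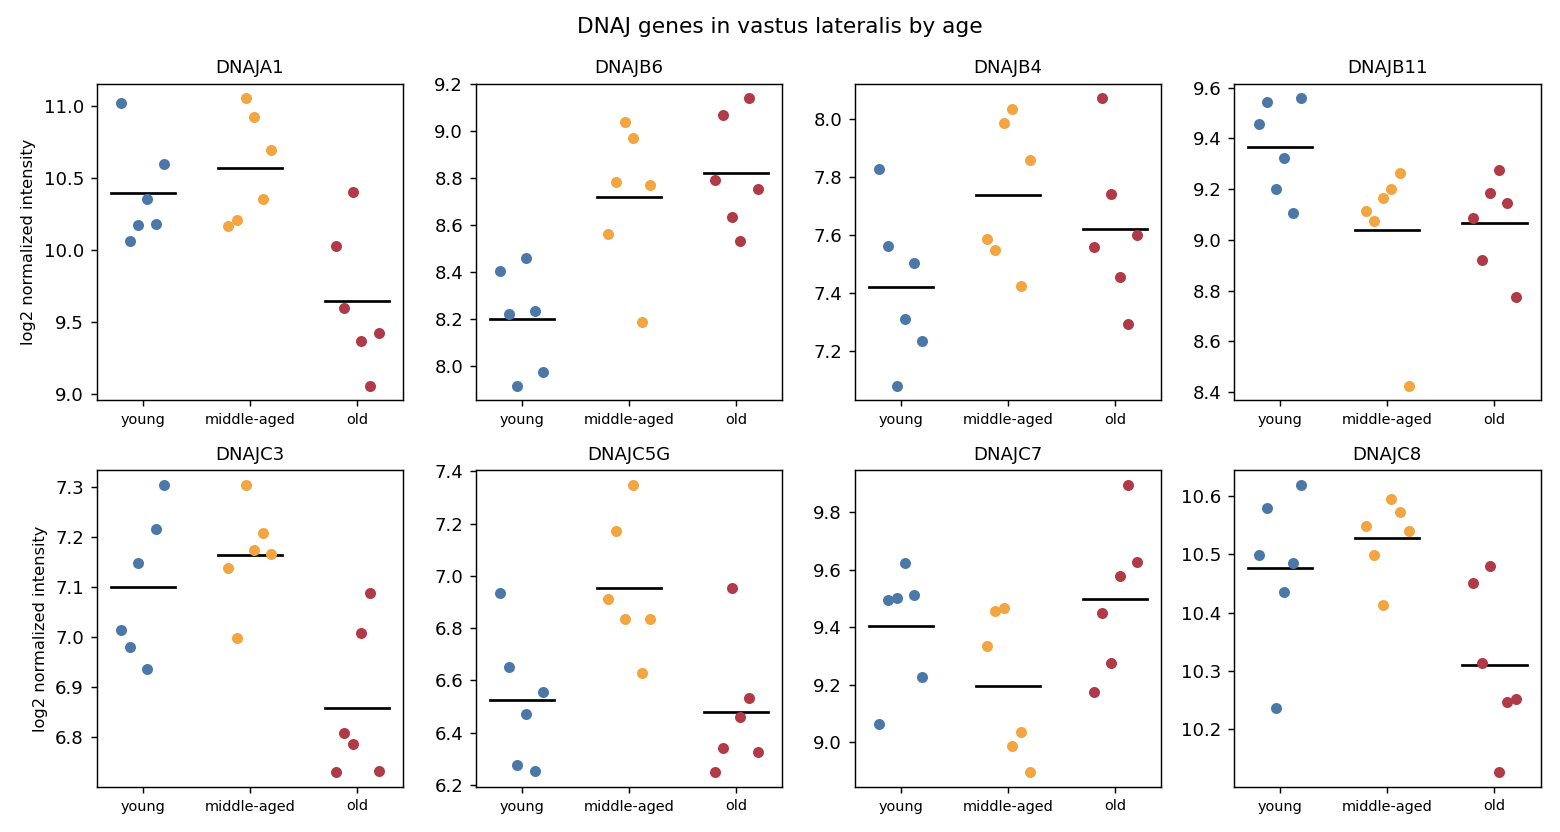
The log2 normalized intensity of 8 DNAJ genes in each of the 18 animals (points), by age, with the mean of each age (line). For DNAJA1, 5 of 6 old animals lie below all others, for DNAJB6 the old animals lie above all young animals, and for DNAJC5G the mean is highest in middle-aged animals.

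DNAJB6, a class B co-chaperone that keeps aggregation-prone proteins soluble, had by its brightest probe the largest difference of class B. Its normalized intensity was 241.4 to 351.9 among young animals (median 299.6), 291.5 to 526.2 among middle-aged animals (median 438.0) and 369.9 to 564.4 among old animals (median 437.4). All 6 old animals lay above all 6 young animals, and 5 of 6 middle-aged animals did too. The log2 difference was 0.62 ± 0.14 between old and young muscle, a 1.53-fold higher level (unadjusted p = 0.000414, adjusted p = 0.0984 from limma), and 0.52 ± 0.14 between middle-aged and young muscle (adjusted p = 0.211). Between old and middle-aged muscle it was 0.10 ± 0.14.

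Of the 24 members, DNAJB6 was the only one whose ages did not overlap between old and young muscle, against 0.862% of all genes tested. No member was free of overlap between middle-aged and young muscle (0.815% of all genes) or between old and middle-aged muscle (1.75%). With array weights the DNAJB6 difference between old and young muscle was 0.61 (adjusted p = 0.0459 from limma) in a fit in which 0.792% of all genes passed, against 0.0931% without the weights, and over the 14 animals it was 0.56 (adjusted p = 0.153).

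A second DNAJB6 probe was detected on all 18 arrays and read differently. It lay at 240.6 to 299.7 in young (median 283.4), 243.9 to 358.1 in middle-aged (median 303.9) and 180.3 to 421.3 among old animals (median 294.1), so that the ages overlapped. In a fit of all 10491 probes with 1 symbol, its log2 difference between old and young muscle was 0.09 ± 0.15 (unadjusted p = 0.544, adjusted p = 0.891 from limma), where the brightest probe had 0.62 ± 0.14 (adjusted p = 0.0894). The platform annotation ties the brightest probe to the transcript of the long, nuclear DNAJB6 isoform and the second probe to that of the short, cytosolic isoform. Whether either probe also matches the other transcript, and the difference between the probes, was not tested.

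**Figure D3:**
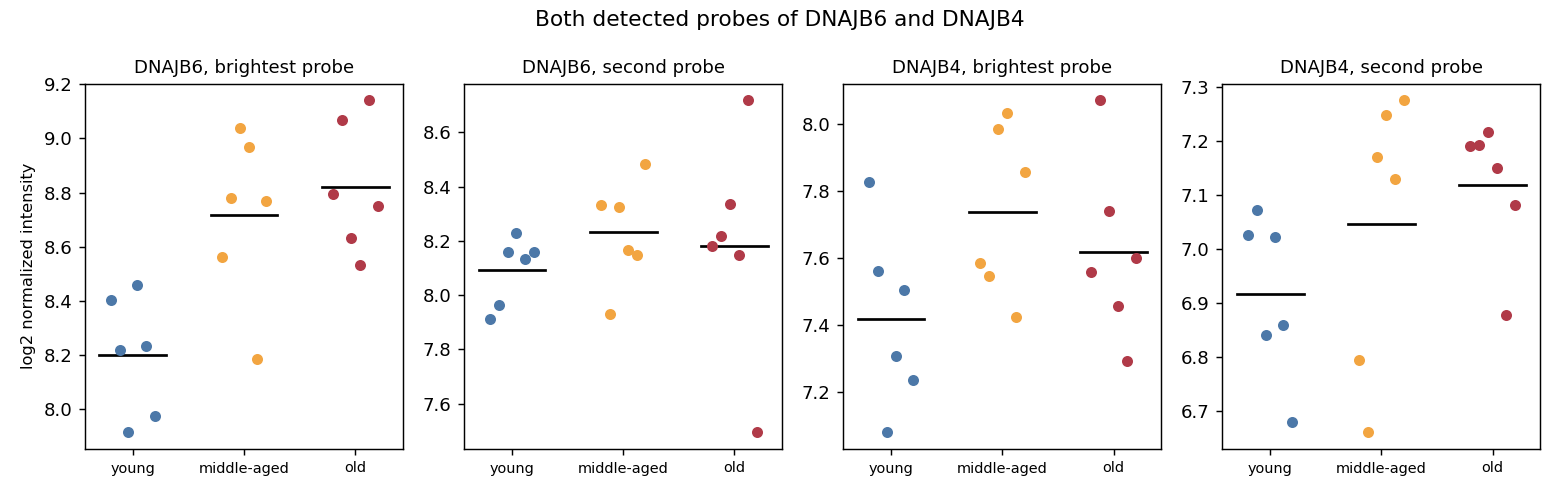
The log2 normalized intensity of both detected probes of DNAJB6 and of DNAJB4 in each of the 18 animals (points), by age, with the mean of each age (line). The brightest DNAJB6 probe separates old from young animals, and the second DNAJB6 probe overlaps between all ages.

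DNAJB4, a heat-inducible cytosolic co-chaperone abundant in muscle, read 135.4 to 227.0 in young (median 170.0), 171.8 to 261.8 in middle-aged (median 211.9) and 156.9 to 268.9 among old animals (median 191.2). All 6 middle-aged animals lay above the young median, and 3 above every young animal. The log2 difference between middle-aged and young muscle was 0.32 ± 0.15 (unadjusted p = 0.041, adjusted p = 0.432 from limma), and 0.21 to 0.56 over the alternatives. Its second probe, detected on 17 arrays, had 0.13 ± 0.11 in the same comparison and 0.20 ± 0.11 between old and young muscle, where the brightest had 0.20 ± 0.15.

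DNAJB1, the classical heat-induced HSP40, read 169.9 to 238.6 in young (median 192.2), 147.8 to 202.3 in middle-aged (median 163.8) and 122.6 to 270.6 among old animals (median 189.2). In 5 of 6 middle-aged animals it lay below every young animal, and the log2 difference of -0.24 ± 0.15 did not pass (adjusted p = 0.597 from limma), and the old animals spanned both other ages. DNAJB5, another heat-inducible cytosolic member, read 457.5 to 792.6 in the young, 228.8 to 770.9 in the middle-aged and 315.3 to 702.0 in the old animals, with medians of 534.9, 601.2 and 477.4. Its ages overlapped, and its 2 detected probes gave the same log2 difference of -0.21 between old and young muscle.

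DNAJB2, a ubiquitin-binding member, and the ER membrane members DNAJB12 and DNAJB14 lay just above background, and their log2 differences were between -0.14 and 0.10. The 4 members tied to human muscle or motor disease or expressed in muscle (DNAJB2, DNAJB4, DNAJB5 and DNAJB6) had median log2 differences of 0.17 between middle-aged and young, -0.09 between old and middle-aged (0.05 with median centring without division by the SD) and 0.04 between old and young muscle. The second DNAJB2 probe, detected on 12 arrays, read -0.12 ± 0.10 between middle-aged and young muscle where the brightest read 0.02 ± 0.07.

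DNAJB11, an ER-lumen co-chaperone of BiP, read 550.2 to 754.1 in young (median 672.0), 343.7 to 614.9 in middle-aged (median 563.7) and 438.0 to 620.2 among old animals (median 555.1). Every middle-aged and every old animal lay below the young median, while the ranges still overlapped. The log2 difference was -0.32 ± 0.13 between middle-aged and young muscle (unadjusted p = 0.0242, adjusted p = 0.375 from limma) and -0.30 ± 0.13 between old and young muscle (adjusted p = 0.416). Middle-aged replicate 6, the lowest animal, moved the first value most, to -0.20 without it and to -0.16 (adjusted p = 0.669) without it and young replicate 6. With median centring without division by the SD it was -0.51 (adjusted p = 0.13).

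DNAJC3, an ER co-chaperone that also restrains the stress kinase PERK, read 122.4 to 158.1 in young (median 135.6), 127.8 to 158.0 in middle-aged (median 144.0) and 106.1 to 136.0 among old animals (median 111.3). Of the old animals, 4 lay below every middle-aged and every young animal. Its probe lay just above background, at 95 to 183 raw intensity units, where probes of genes not tested reached 120. It was detected on 5 of 6 old arrays. The log2 difference was -0.31 ± 0.09 between old and middle-aged muscle (unadjusted p = 0.00241, adjusted p = 0.0962 from limma) and -0.24 ± 0.09 between old and young muscle (adjusted p = 0.285). Over the 14 animals these values were -0.22 (adjusted p = 0.258) and -0.12 (adjusted p = 0.643). That set leaves out young replicate 6, the highest young animal for DNAJC3 at 158.1, and old replicates 1, 2 and 3 at 106.1, 112.1 and 110.4. The old animals that remain read 128.8, 136.0 and 106.3. With neqc the first value was -0.62 (adjusted p = 0.0509).

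DNAJC10, an ER reductase that removes wrong disulfides, read 362.7 to 418.7 in the young, 280.7 to 403.3 in the middle-aged and 291.7 to 486.3 in the old animals. In 5 of 6 middle-aged animals it lay below every young animal, and the log2 difference of -0.22 ± 0.12 did not pass (adjusted p = 0.531 from limma). The 5 tested ER members had median log2 differences of -0.01 between middle-aged and young, 0.02 between old and middle-aged (-0.03 with quantile normalization) and -0.11 between old and young muscle. Between old and young muscle 4 of these 5 differences were below 0, and none passed.

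DNAJC8, a nuclear protein associated with splicing, read 1206.1 to 1572.8 in young (median 1440.3), 1363.3 to 1546.1 in middle-aged (median 1493.3) and 1117.3 to 1427.6 among old animals (median 1245.5). Every old animal lay below the middle-aged median, and 4 lay below every middle-aged animal. The log2 difference between old and middle-aged muscle was -0.22 ± 0.08 (unadjusted p = 0.0136, adjusted p = 0.18 from limma), and with median centring without division by the SD it turned to 0.06 (adjusted p = 0.788). Between old and young muscle, where that scaling turned none of the 24 members, it was -0.16 ± 0.08 (adjusted p = 0.462).

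DNAJC7, a co-chaperone with tetratricopeptide repeats that binds both HSP70 and HSP90, read 535.0 to 789.6 in young (median 723.4), 476.0 to 707.6 in middle-aged (median 585.4) and 577.9 to 953.1 among old animals (median 731.3). All 6 middle-aged animals lay below the young median, and 3 old animals lay above every middle-aged animal. The log2 difference between old and middle-aged muscle was 0.30 ± 0.14 (unadjusted p = 0.0382, adjusted p = 0.275 from limma), and 0.22 to 0.51 over the alternatives.

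DNAJC13, which acts on endosomes, read 172.8 to 221.6 in young (median 194.8), 205.5 to 248.5 in middle-aged (median 228.0) and 172.3 to 259.5 among old animals (median 209.8). In 4 of 6 middle-aged animals it lay above every young animal. The log2 difference between middle-aged and young muscle was 0.22 ± 0.10 (unadjusted p = 0.0463, adjusted p = 0.444 from limma), and 0.10 to 0.41 over the alternatives. DNAJC27, a small GTPase with a J domain, overlapped at all ages, with log2 differences between -0.09 and 0.08 that turned direction with the scaling.

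DNAJC5G, a cysteine string protein relative, read 76.3 to 122.3 in young (median 91.4), 98.9 to 163.0 in middle-aged (median 117.3) and 76.0 to 123.8 among old animals (median 84.6). The probe was detected on 5 of 6 middle-aged arrays but on 1 of 6 young and 1 of 6 old arrays. It passed the detection filter through the middle-aged animals, where it is high, so its log2 differences of 0.43 ± 0.14 between middle-aged and young and -0.48 ± 0.14 between old and middle-aged muscle are a description. Without DNAJC5G the counts given above at an unadjusted p under 0.05 are 4 higher between middle-aged and young and 3 lower between old and middle-aged muscle.

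DNAJC28, a member of class C, had 4 probes that disagreed. The probe used read 10273.8 to 12591.2 in young (median 10932.9), 11397.0 to 16616.1 in middle-aged (median 13726.1) and 8929.6 to 15249.5 among old animals (median 10901.9). Its 3 other probes read 56 to 134 raw intensity units and were detected on 0, 0 and 5 of the 18 arrays. The log2 difference of 0.27 ± 0.12 between middle-aged and young muscle (unadjusted p = 0.0405, adjusted p = 0.43 from limma) turned to -0.19 with median centring without division by the SD.

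Of the remaining class C genes, DNAJC30, a mitochondrial protein, read 144.7 to 198.1 in the young, 101.9 to 157.7 in the middle-aged and 115.2 to 206.2 in the old animals. In 5 of 6 old animals it lay above every middle-aged animal, and the log2 difference was 0.29 ± 0.14 (unadjusted p = 0.0502, adjusted p = 0.304 from limma). DNAJC4, DNAJC17, associated with splicing, and DNAJC24, which acts in diphthamide synthesis, had log2 differences between -0.25 and 0.26. A second probe of DNAJC30 and a second probe of DNAJC4 were detected on no array.

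By class, each animal was given a score, the average over tested genes of its log2 level relative to that gene's mean in all animals. The class A score was -0.21 to 0.42 among young animals (median 0.12), -0.38 to 0.62 among middle-aged animals (median 0.06) and -0.49 to 0.29 among old animals (median -0.30). The class B score was -0.12 to 0.08, -0.25 to 0.15 and -0.07 to 0.11 in the same order, and the class C score -0.09 to 0.04, -0.08 to 0.08 and -0.07 to 0.03. In every class the ages overlapped. Class A, with 4 genes, had a within-age SD of the score of 0.23 to 0.48, against 0.08 to 0.14 in class B and 0.04 to 0.05 in class C. The scores of classes B and C average 8 and 12 genes, and a mean over more genes can spread less. For single genes the median within-age SD was 0.37, 0.2 and 0.21 in classes A, B and C. Median intensities were 543.7 to 1437.8 in class A, 102.9 to 578.0 in class B and 96.4 to 11444.9 in class C. The part of gene number and brightness in these spreads was not tested.

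**Figure D4:**
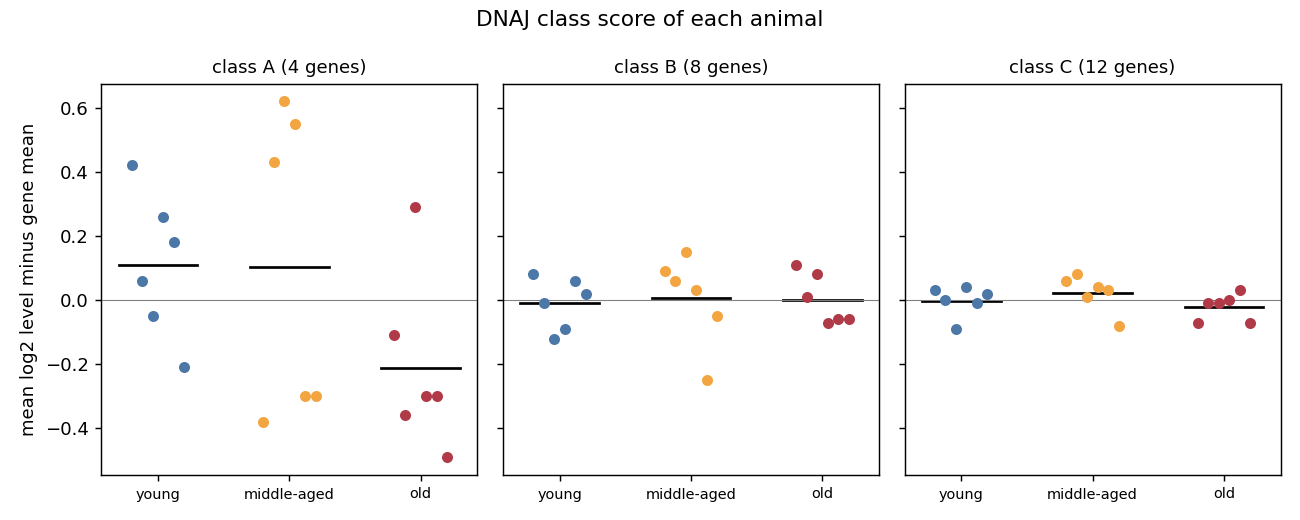
The score of each DNAJ class (mean log2 level relative to each gene's mean) in each of the 18 animals (points), by age, with the mean of each age (line). Class A scores, averaged over 4 genes against 8 and 12, spread widest, with 5 of 6 old animals below 0. Class B and C scores lie close to 0 at every age.

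The median log2 difference of class A was 0.15 between middle-aged and young muscle (-0.11 with median centring without division by the SD), -0.33 between old and middle-aged muscle (-0.09 under that centring) and -0.22 between old and young muscle, against -0.03, 0.02 and -0.01 over all genes tested. Between old and young muscle the log2 differences of DNAJA2, DNAJA3 and DNAJA4 were -0.17, -0.08 and -0.27 (adjusted p = 0.876, 0.893 and 0.905 from limma), and DNAJA1 alone of class A reached an unadjusted p under 0.05. Leaving out 1 animal moved the class A median to between -0.03 (without middle-aged replicate 3) and 0.23 (without young replicate 1) in the first comparison, -0.49 (without middle-aged replicate 1 or 5) and -0.17 (without middle-aged replicate 3) in the second, and -0.36 (without old replicate 3) and -0.15 (without old replicate 6) in the third. The medians of class B were 0.00, -0.02 and -0.10, and those of class C were 0.06, -0.10 and -0.01, with class B at 0.12 and class C at -0.18 and 0.14 in the comparisons with middle-aged muscle under that centring. That centring alone also moves the median of all genes to -0.14 between middle-aged and young and to 0.13 between old and middle-aged muscle. Without DNAJC28, whose probes disagreed, and DNAJC5G, the class C medians were -0.01 between middle-aged and young and 0.02 between old and middle-aged muscle. The class medians were not tested against each other.

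The HSP70s that DNAJ proteins serve were read beside them. HSPA8, the constitutive cytosolic HSP70, read 4696.7 to 7753.4 in young (median 7235.9), 5556.6 to 11242.3 in middle-aged (median 9344.0) and 3404.3 to 7824.0 among old animals (median 5411.1), with a log2 difference of -0.67 ± 0.20 between old and middle-aged muscle (adjusted p = 0.107 from limma) that was -0.23 with median centring without division by the SD. A second, dimmer HSPA8 probe was detected on all 18 arrays at 1436 to 3532 raw intensity units, and its differences between ages are not given here. HSPH1, a nucleotide exchange factor of HSP70, had -0.66 ± 0.25 between old and middle-aged muscle (adjusted p = 0.199 from limma). Of the 8 tested of 16 HSP70 genes, 0 passed the adjusted threshold in any comparison. At an unadjusted p under 0.05, 3 were lower between old and middle-aged muscle, against 7.22% of all genes. The median of the 8 there was -0.24 (-0.02 with median centring without division by the SD). HSPA5 and HSPA1A, the partners of DNAJB11 and DNAJB1, were detected on 0 arrays. HSPA1B, the near-identical copy of HSPA1A, was detected and read 1984.9 to 3916.4 in young (median 2525.6), 1985.6 to 6404.3 in middle-aged (median 4077.7) and 1440.1 to 5218.4 among old animals (median 2549.1), so that the inducible HSP70 was read through this probe, and which of both copies it measures is uncertain. Its log2 difference was 0.59 ± 0.31 between middle-aged and young muscle (adjusted p = 0.503 from limma) and -0.57 ± 0.31 between old and middle-aged muscle (adjusted p = 0.362), which were 0.23 and -0.21 with median centring without division by the SD.

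Among 11 tested nucleotide exchange factors and regulators of HSP70, 0 passed by limma. At an unadjusted p under 0.05, 2 were higher between middle-aged and young muscle (4.2% of all genes) and 3 lower between old and middle-aged muscle (7.22% of all genes). Between old and young muscle 1 was higher (5.27% of all genes) and 1 lower (5.69% of all genes). HSPB8, a small heat shock protein of chaperone-assisted autophagy, read 2949.9 to 5192.3 in young (median 4186.5), 4409.7 to 9104.4 in middle-aged (median 6464.5) and 3052.1 to 6428.3 among old animals (median 3570.5). Its log2 difference was 0.65 ± 0.21 between middle-aged and young muscle (adjusted p = 0.261 from limma) and -0.64 ± 0.21 between old and middle-aged muscle (adjusted p = 0.132), which were 0.25 and -0.23 with median centring without division by the SD. BAG4 had -0.31 ± 0.09 between old and young muscle (adjusted p = 0.158).

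Among 8 tested HSP90 genes, 0 passed by limma. At an unadjusted p under 0.05 there was 1 between middle-aged and young muscle, against 11.1% of all genes in either direction. Between old and middle-aged muscle there was 1, against 16.5%. CDC37, the kinase-loading co-chaperone of HSP90, had -0.34 ± 0.09 between old and middle-aged muscle (adjusted p = 0.0742 from limma), which turned to 0.03 with median centring without division by the SD. Of the ER stress genes, 8 of 13 were tested and 0 passed by limma. At an unadjusted p under 0.05, 2 were lower between middle-aged and young muscle (6.9% of all genes) and 3 higher between old and middle-aged muscle (9.24% of all genes). XBP1, the transcription factor of the ER stress response, had -0.40 ± 0.14 between middle-aged and young muscle (adjusted p = 0.281 from limma). Between old and middle-aged muscle it had 0.36 ± 0.14 (adjusted p = 0.188). PDIA6 had -0.20 ± 0.08 and 0.25 ± 0.08 in the same comparisons (adjusted p = 0.361 and 0.133 from limma). Its probe read near background, at 87.2 to 123.1 normalized intensity units. HSF4, a heat shock factor, HSBP1, which encodes a protein that binds a heat shock factor, and the 3 tested J-domain genes with other symbols, SEC63, GAK and HSCB, had 0 genes with an unadjusted or adjusted limma p under 0.05 in any comparison.

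The levels of DNAJA1 and its partners were compared across the 18 animals after subtracting each age's mean. HSPA8 was read by its brighter probe only. DNAJA1 and HSPA8 had Pearson's r = 0.558 (permutation p = 0.0295, 100000 resamples within ages, two-sided) and Spearman's rho = 0.54 (permutation p = 0.0399). Within the ages r was -0.089 in young, 0.493 in middle-aged and 0.949 in old animals. Without the 2 animals farthest from the median of DNAJA1 after subtracting age means (young replicate 1 and old replicate 3), r was 0.431 (permutation p = 0.133), and without the 2 farthest by level (middle-aged replicate 3 and old replicate 5) it was 0.45 (permutation p = 0.0794), so the relation no longer passed with fewer animals.

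DNAJB1 and DNAJA1 had r = 0.676 (permutation p = 0.00634) and rho = 0.631 (permutation p = 0.012), with r of 0.548, 0.638 and 0.779 within young, middle-aged and old animals. Without the 2 animals farthest from the median of DNAJB1, r was 0.603. On the levels without subtracting age means, r was 0.335 for this pair and 0.731 for DNAJA1 and HSPA8. Resampling within ages keeps the age means in these levels, so no p-value is given for them. After Benjamini-Hochberg adjustment over the 2 pairs, the Pearson permutation p-values were 0.0127 for DNAJB1 and DNAJA1 and 0.0295 for DNAJA1 and HSPA8. All points share the array they were read from, and both pairs share DNAJA1. The pairs DNAJB1 with HSPA1A and DNAJB9 with HSPA5 were planned and could not be run, because HSPA1A, HSPA5 and DNAJB9 were undetected.

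**Figure D5:**
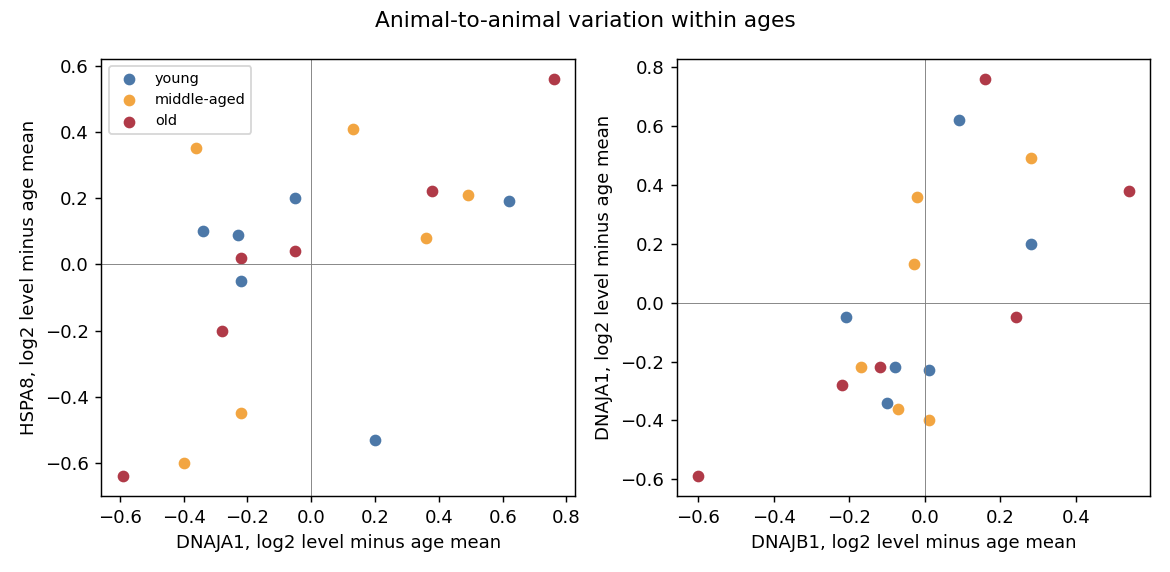
The log2 level minus the age mean of DNAJA1 against HSPA8 (left) and of DNAJB1 against DNAJA1 (right), each point an animal and each colour an age. Old animals span the widest range in both panels, and in the left panel the young animals show no common slope.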

How the data were processed

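Muscle RNA of 18 rhesus monkeys was read on 18 arrays, and GenomeStudio intensities were deposited by the authors without normalization, with a detection p-value for each probe as deposited. The deposited Z scores, made by the authors from natural log intensities centred and divided by the SD of each array, are standard scores and were used as an alternative. They differed from recomputed ones by at most 0.0184. Here, recomputed Z scores were scaled by 1.19 (the arrays' mean SD on the log2 scale) to read as log2 differences, and normalized intensity is 2 to the power of that value plus the grand mean. Probes are named by the platform annotation as given, 30113 of 47323 with 1 symbol. A single model of the 3 ages was fitted with limma 3.58.1 in R 4.3.3, and p-values were adjusted by Benjamini-Hochberg over 8589 genes. The fit was tested on simulated data. Tables used Python 3.11.15, pandas 2.3.3, numpy 2.4.6, scipy and matplotlib 3.10.9. Values were given for members with an unadjusted p under 0.05, the brightest of each class and 9 members chosen by role. Those of DNAJA4, DNAJC10 and DNAJC30 were given in addition, outside this rule. Members and lists were chosen with earlier results of these data known. Alternatives were quantile normalization, median centring, neqc with offset 16, deposited Z scores, no filter, detection p under 0.01, the mean of probes, array weights, a replicate block, only the 2 ages compared, the methods' t-test and leaving out each animal. The number of arrays limits the precision. DNAJC19 and probe sequences were not analysed here.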

Additional observations from a re-analysis of the deposited data

Results flagged for a closer look

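Among the 24 DNAJ genes and 3 class scores at 3 ages, 3 of 81 groups of 6 animals held an animal far from the other 5, where chance flags about 1 in 20. DNAJA2 read 452.7 in middle-aged replicate 6, below the 1180.2 to 1786.7 of the other middle-aged animals. DNAJB11 read 343.7 in the same animal, against 538.8 to 614.9 in the others. DNAJA3 read 873.6 in young replicate 6, against 1258.0 to 1563.4 in the other young animals. Young replicate 6 was also the array that correlated least with the rest. Middle-aged replicate 6 had the lowest share of probes detected (24.5%) and the smallest SD of log intensities (0.711) of all arrays. No explanation was tested for these values.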

How the results depend on the processing

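No DNAJ gene passed in the main setting, and this count stayed at 0 under quantile normalization, neqc, median centring, the deposited Z scores, no filter, the stricter filter, the mean of probes, the 2-age fits and 15 animals (old replicates 1 and 2 and young replicate 6 left out). With array weights 1 gene passed between old and middle-aged muscle (DNAJA1) and 1 between old and young muscle (DNAJB6), where the genes passing of all 8589 went from 56 to 71 and from 8 to 68. Over the 14 animals, which leave out the highest old animals for DNAJA1, 1 passed between old and middle-aged muscle (DNAJA1). Leaving out each animal gave 0 to 2 in that comparison (DNAJA1, and without old replicate 3 also DNAJC5G, which entered the test only through the middle-aged animals) and 0 in the others. The methods' t-test on unadjusted p, with the study's cuts on Z ratio and average intensity, called 2 between middle-aged and young, 1 between old and middle-aged and 2 between old and young muscle (405, 493 and 384 of all genes), and 0 after Benjamini-Hochberg adjustment. Median centring without division by the SD gave class C medians of -0.18 between middle-aged and young and 0.14 between old and middle-aged muscle, and a class B median of 0.12 in the latter. In the same 2 comparisons, class C was -0.03 and -0.01 without the filter, and -0.01 and 0.02 without DNAJC28 and DNAJC5G. Over the 14 animals, class B was -0.13 and class C -0.18 between old and middle-aged muscle. Leaving out each animal gave class C medians of -0.16 to -0.05 and class B medians of -0.07 to 0.05 there. DNAJC28 turned to -0.19 and DNAJC8 to 0.06 with median centring. The pairs gave r of 0.45, 0.431, 0.603, 0.335 and 0.731 as reported above. Same-numbered animals of different ages deviated with r of -0.259 to 0.22, so numbers do not pair animals, and with the replicate block 0 DNAJ genes passed in each comparison, as without it. The cause of these changes was not tested. The 14 and 15 animals, the added exclusions, the 2 animals farthest after subtracting age means and the probe-level fit were chosen after seeing the data.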
